A study of Homo sapiens with 6 samples.

Results

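Cytosolic ribosomal protein genes were followed in HCT116SCs transfected with siRNA against PSCA (siPSCA), the gene of prostate stem cell antigen, or with negative control siRNA (NC). The members were the protein-coding rows of the deposited expression table whose symbol names a protein of the large subunit (RPL and RPLP) or of the small subunit (RPS, RPSA and FAU), paralogs with an L after the number included. Of 87 symbols that matched, RPS27L and the Y-linked rows, 3 in all, were left out. This gave 84 of the 58735 genes in the table, 52 of the large and 32 of the small subunit. RNA was sequenced in 6 libraries, NC 1 to NC 3 and siPSCA 1 to siPSCA 3. HCT116SCs are stem-like cells that were sorted with magnetic beads for CD44 and CD326 from HCT116, a human colorectal cancer line. All 6 libraries are labelled WT and came from cells grown as spheres in serum-free DMEM/F12 with EGF, bFGF and B27, dissociated, transfected with a liposomal reagent and harvested 48 h later. The labels list 3 siRNA sequences against PSCA and do not state which was used here, and the titles of siPSCA 2 and siPSCA 3 carry the numbers 117 and 118 after HCT where every other label carries 116. No label says whether the 3 libraries of a group came from separate cultures, so the p-values measure the spread between these libraries, which may be technical.

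The cytosolic ribosome joins a small subunit, which reads the mRNA, to a large subunit, which links amino acids, and ribosomal proteins fold around and stabilise the rRNA of each. Most mRNAs of ribosomal proteins begin with a C that is followed by an unbroken run of C and T (U in the RNA), the terminal oligopyrimidine or TOP motif, through which the kinase complex mTORC1 and the RNA-binding protein LARP1 control their translation. The genes are among the most strongly transcribed in growing cells, many introns of theirs hold small nucleolar RNAs (snoRNAs), and the genome carries many reverse-transcribed copies of them (processed pseudogenes).

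The start sites of members that rose or fell are shown because the run of C and T at the start base is the feature that these mRNAs share. RefSeq windows of the start (GRCh38.p14) were matched for 67 of the 84 members. Each sequence below has 30 bases on the strand of the gene, 15 before the start base and 15 from it on, where the first exon begins, and the capitals mark the run of C and T that begins with a C at the start base. The first 4 belong to members that were lower in siPSCA libraries: RPL11, which did not pass the test on all libraries (chr1:23691791-23691820, plus strand, the second of 2 annotated starts), RPS3A (chr4:151099613-151099642, plus strand), RPS6 (chr9:19380222-19380251, minus strand) and RPL3 (chr22:39319609-39319638, minus strand). The next 4 belong to members that were higher: RPL26 (chr17:8383179-8383208, minus strand), RPS21 (chr20:62387088-62387117, plus strand), RPLP1 (chr15:69452803-69452832, plus strand) and RPL41 (chr12:56116618-56116647, plus strand). RPS28 (chr19:8321481-8321510, plus strand) and the paralog RPL26L1 (chr5:172958714-172958743, plus strand, the first of 2 starts) have no such run at the start base itself. In RPS28 a run of C and T that begins with a C starts at the base directly after it. When the run may begin a few bases from the start base, as counted below, RPS28 held such a run and RPL26L1 did not.
RPL11: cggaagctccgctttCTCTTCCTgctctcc
RPS3A: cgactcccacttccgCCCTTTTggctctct
RPS6: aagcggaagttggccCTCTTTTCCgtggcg
RPL3: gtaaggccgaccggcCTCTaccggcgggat
RPL26: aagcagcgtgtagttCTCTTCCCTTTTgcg
RPS21: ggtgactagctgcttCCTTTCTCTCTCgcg
RPLP1: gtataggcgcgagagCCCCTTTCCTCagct
RPL41: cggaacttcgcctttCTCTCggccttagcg
RPS28: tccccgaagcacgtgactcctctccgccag
RPL26L1: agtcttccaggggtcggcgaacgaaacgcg

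A C at the start base with at least 4 further bases of C or T was present in 48 of the 67 members (71.6%) and in 5.14% of the 27305 genes with a window. The members that rose and those that fell both held it, in 9 of 10 and 14 of 23 respectively, as did 25 of 33 members without a call. Allowing the run to begin up to 5 bases before or after the start base gave 82.1% of the members and 25.2% of all genes. RPL3 had a run of 4 bases, 1 short of this definition. TATAAA or TATATA lay between 40 and 16 bases before the start, on the strand of the gene, in 13.4% of the members and 3.92% of all genes. CCGGAAG, the core bound by ETS factors, lay anywhere in the window of 250 bases before and 50 from the start, on either strand, in 34.3% of the members and 12.2% of all genes, and AAGATGGC, the core of the YY1 motif, in 11.9% and 3.52%. These are matches of letters and not measured binding.

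The libraries held 16099716 to 17302219 reads on genes, recovered from FPKM (fragments scaled to exon length and library size) and gene length. PSCA itself had 31 reads in the NC and 25 in the siPSCA libraries, with FPKM between 0.135 and 0.494 in NC and between 0.218 and 0.302 in siPSCA, so at this depth its mRNA did not tell the groups apart. NC 3 stood apart. Over the members, the root mean square of its log2 difference from the mean of the other NC libraries was 0.262, against 0.0559 to 0.170 for the other 5 libraries. Across 13792 genes that difference ran against GC content (Spearman rho -0.57). This rho was 0.49 and 0.44 for NC 1 and NC 2, whose comparison includes NC 3. In siPSCA 1, 2 and 3 it was 0.31, 0.11 and -0.39, so a deviation along GC content was not particular to NC 3. Of 8 markers of colorectal epithelium and of the sort, 6 had a mean FPKM of at least 1, with CDX1 at 0 reads in all libraries, and the summed level was 500.6 to 563.9 FPKM in NC and 495.9 to 511.7 in siPSCA. Of these 6, 2 rose (33.3%) and 2 fell (33.3%), against 26.6% and 24.2% of all genes. The log2 fold changes ran from -0.60 (CDH1) to 0.70 (CDX2). The sorted antigen CD44 was among those that fell (log2 fold change -0.44, adjusted p = 0.00193). The other sorted antigen, CD326 (EPCAM), was neither among the 2 lowest nor among the 2 highest. Of 8 markers of other cell types only COL1A1 had a mean FPKM of at least 1. The sums were 4.77 to 7.01 in NC and 7.24 to 7.74 in siPSCA, and the part of other cell types in the results was not tested. In bulk RNA, fewer cells of a kind and less RNA per cell cannot be told apart.

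As a group the members held a smaller share of the reads after PSCA siRNA. They took 4.17%, 4.29% and 4.31% of the reads on genes in NC 1, 2 and 3, and 4.09%, 3.995% and 3.86% in siPSCA 1, 2 and 3. The groups did not overlap, and the means were 4.26% ± 0.0783 and 3.98% ± 0.114 (SD, n = 3 each), a log2 ratio of -0.096. The large subunit fell from a mean of 2.65% to 2.49% and the small subunit from 1.61% to 1.49%. The smallest p that an exact permutation test can give with 3 libraries against 3 is 0.1, so no share or level taken alone can pass 0.05.

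The members did not move as a block. Of the 81 members with a mean FPKM of at least 1, 13 rose (16.0%) and 29 fell (35.8%) in siPSCA at an adjusted p under 0.05, and 39 did not pass. Over all 13796 genes tested, 26.6% rose and 24.2% fell. The test was limma on log2(FPKM + 1) with Benjamini-Hochberg adjustment over all genes, and all adjusted p-values of single genes come from it. Every siPSCA library lay above every NC library in 20 members (24.7%, against 33.7% of all genes), every siPSCA library lay below in 35 (43.2%, against 30.8%), and the groups overlapped in 26. The median log2 fold change was -0.07, with quartiles at -0.30 and 0.15 and a range from -0.65 to 1.00, and that of all genes was 0.01. An unadjusted p under 0.05 with a log2 fold change over 0.5 in size was met by 5 of the 81 members for rises and 7 for falls. Both are smaller shares than the 14.7% and 10.2% of all genes, so under this rule falls were not in excess. The counts depended on single libraries. Without siPSCA 3, 14 members were lower (17.3%, against 19.7% of all genes in that fit), and without siPSCA 2 there were 15 (18.5%, against 16.9%), so the larger share of falls among the members was absent in the first of these fits and small in the second. Members that were higher numbered 8 without siPSCA 1 and 8 without siPSCA 2 (9.88% in both, against 16.7% and 17.4% of all genes). Leaving out NC 3 gave 19 higher (23.5%, against 29.1%) and 34 lower members (42.0%, against 24.7%). In every fit without 1 library, 8 of the 13 rises and 13 of the 29 falls were called. The part of all calls over all genes that held in this way was not computed. All genes gave 7001 calls on the 6 libraries and 4627 to 7425 in these fits.

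**Figure D1:**
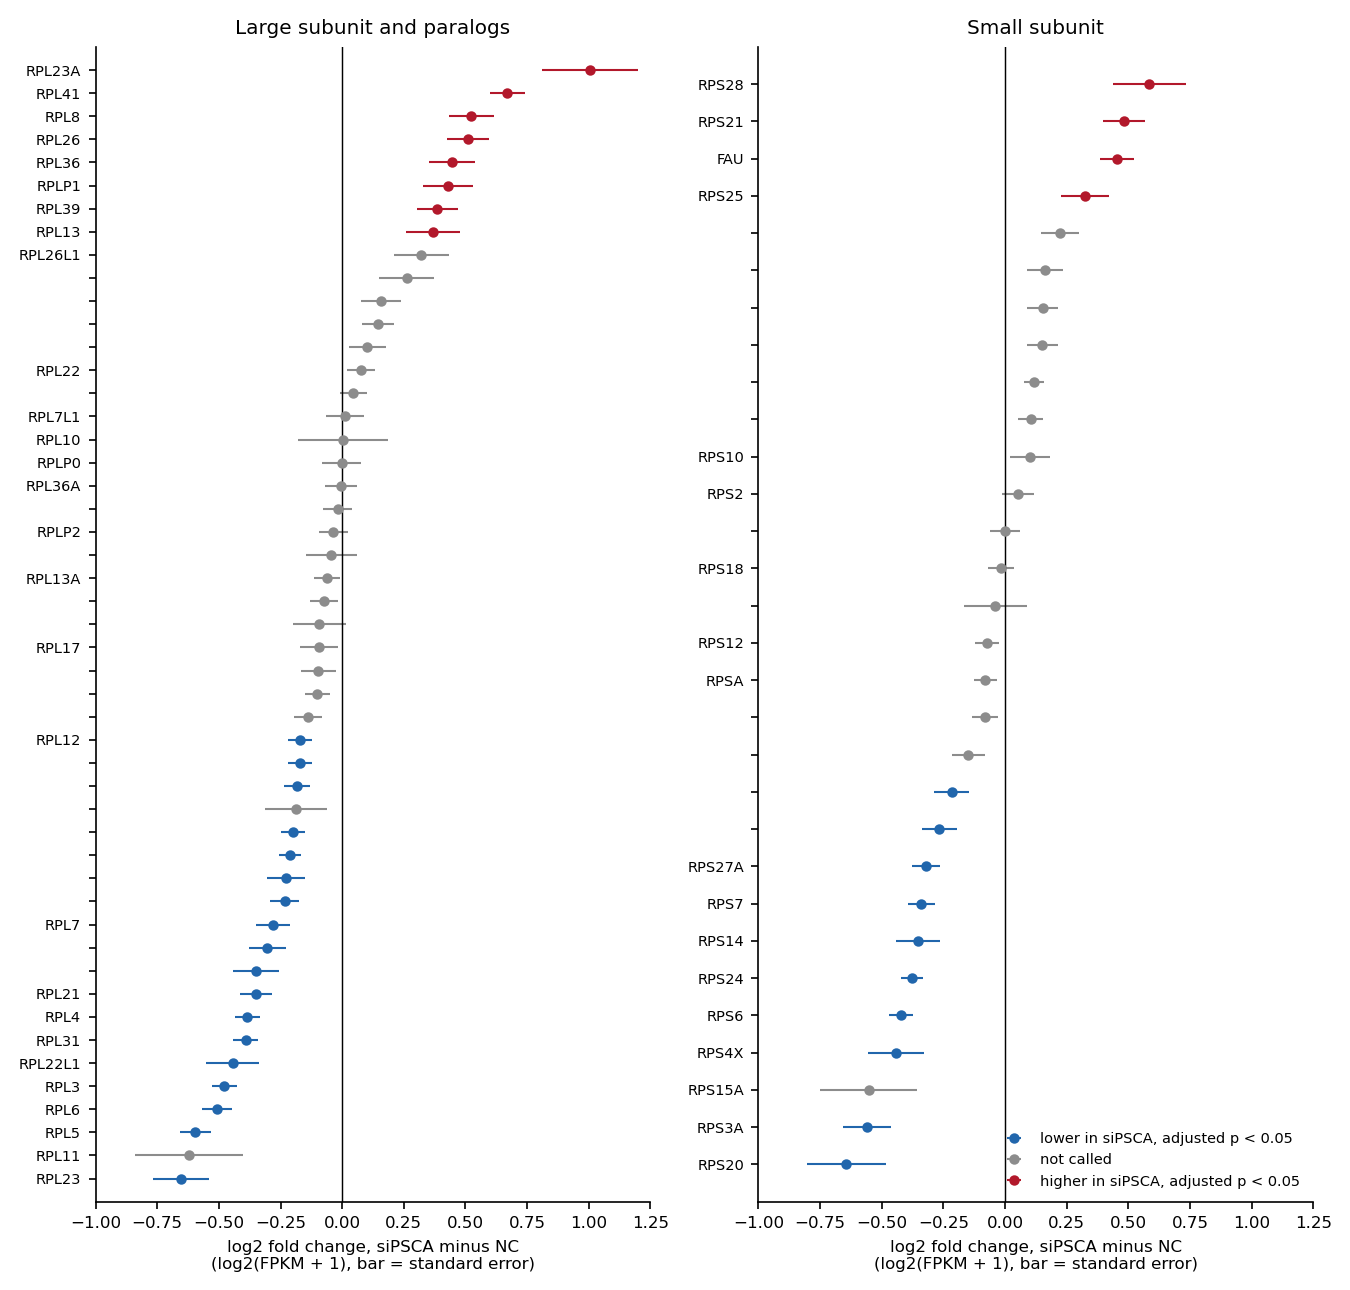
log2 fold change (siPSCA minus NC, on log2(FPKM + 1)) of the tested members reported here, ordered within the large and the small subunit; bars are standard errors from limma and colour marks the call at an adjusted p under 0.05; genes named in the text are labelled. Changes run from -0.65 (RPL23) to 1.00 (RPL23A), and both subunits hold rises and falls.

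Both subunits held rises and falls. Of the large subunit 49 members were tested, of which 8 rose (16.3%) and 18 fell (36.7%), with a median log2 fold change of -0.09. Of the 32 small subunit members 5 rose (15.6%) and 11 fell (34.4%), with a median of -0.06. Over all genes 26.6% rose and 24.2% fell. The ratio of large to small subunit reads was 1.66, 1.67 and 1.62 in NC 1, 2 and 3 and 1.68, 1.67 and 1.67 in siPSCA 1, 2 and 3, so NC 3 was the lowest and the groups overlapped.

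Levels spanned a wide range. The tested members had mean FPKM from 1.81 (RPS10) to 681.8 (RPS2), with a median of 129.3, where the median of all tested genes was 5.94. Among the 100 genes with the highest mean FPKM, 24 were members, and 46 members exceeded 100 FPKM. FPKM were computed by the authors over the union of all annotated exons, which was 767 to 9845 bases long for the members and counts intronic sequence of retained-intron models, so it understates the level of a short mRNA within a long union.

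Of the 6 most abundant members only RPL8 rose. RPS2, at the entry of the mRNA channel, had 642.9, 685.7 and 679.3 FPKM in NC and 730.7, 709.9 and 642.4 in siPSCA, which overlapped (log2 fold change 0.05 ± 0.06 SE, adjusted p = 0.529). RPL13A (563.9, 585.1 and 588.5 against 582.9, 551.4 and 531.5), RPS12 (534.6, 564.6 and 555.5 against 545.3, 508.5 and 518.9), RPS18 (397.7, 400.4 and 379.7 against 405.5, 388.7 and 370.5) and RPLP0 (397.3, 402.4 and 336.1 against 391.5, 371.5 and 368.0) overlapped as well, with adjusted p between 0.254 and 0.985. RPL8, which sits near the peptidyl transferase centre, had 342.6, 357.1 and 295.0 FPKM in NC and 501.9, 489.2 and 438.0 in siPSCA (log2 fold change 0.52 ± 0.09, adjusted p = 0.0053), a rise that was lost when the GC trend described further on was removed.

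The largest fall was that of RPL23 (ENSG00000125691, chr17:38847865-38853843, minus strand, GRCh38), a protein of the face where the subunits meet. It had 88.6, 97.9 and 120.4 FPKM in NC and 66.8, 62.6 and 63.1 in siPSCA (log2 fold change -0.65 ± 0.11, adjusted p = 0.00519). All siPSCA libraries lay below all NC libraries, and NC 3 was the highest. The rank depended on the fit. Without NC 3 the log2 fold change of RPL23 was -0.53, beside -0.54 for RPL5. With the GC and length trend removed it was -0.52, beside -0.71 for RPL3. RPS20, of the head of the small subunit, had 193.3, 215.6 and 303.1 FPKM in NC and 152.0, 148.4 and 145.5 in siPSCA (-0.64 ± 0.16, adjusted p = 0.0178). The groups were again apart with NC 3 on top, but the adjusted p was 0.0545, 0.0559 and 0.0541 without siPSCA 1, 2 and 3. RPS3A (chr4:151099573-151104652, plus strand), near the channel through which mRNA leaves, had 288.4, 292.5 and 360.6 FPKM in NC and 225.3, 204.5 and 204.8 in siPSCA (-0.56 ± 0.10, adjusted p = 0.00552). RPS15A, which binds the rRNA of the small subunit body, had 11.3, 12.3 and 19.8 FPKM in NC and 9.87, 9.06 and 8.91 in siPSCA. The groups did not overlap and NC 3 was the highest library, but it did not pass the test (-0.55 ± 0.20, adjusted p = 0.0552). Without NC 3 its log2 fold change was -0.32 (adjusted p = 0.00751) and without NC 1 it was -0.70 (0.0322).

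RPL5 and RPL11 carry the 5S rRNA into the large subunit and, when not assembled, bind the ubiquitin ligase MDM2. RPL5 (chr1:92831983-92841924, plus strand) had 235.8, 244.1 and 271.6 FPKM in NC and 162.7, 165.8 and 167.1 in siPSCA. These values were tight in both groups and far apart (-0.59 ± 0.06, adjusted p = 0.00136). RPL11 (chr1:23691742-23696835, plus strand) had 187.3, 203.7 and 339.7 FPKM in NC and 153.2, 155.9 and 148.0 in siPSCA. NC 3 was far above the other NC libraries, and RPL11 was not called (-0.62 ± 0.22, adjusted p = 0.0531), whereas the log2 fold change was -0.36 without NC 3 (adjusted p = 0.00184) and -0.78 without NC 1 (0.0306). Of the genes of the checkpoint that the free 5S particle feeds, MDM4 fell (-0.60 ± 0.06), CDKN1A rose (0.84 ± 0.14), and MDM2 had a log2 fold change of -0.14 with an adjusted p of 0.176.

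RPS6, the small subunit protein that S6 kinases phosphorylate, had 358.4, 371.0 and 364.8 FPKM in NC and 260.3, 273.9 and 281.6 in siPSCA (-0.42 ± 0.05, adjusted p = 0.00159). It was among the 13 members that fell in every fit without 1 library, which also included RPL23, RPL5, RPS3A, RPL6, RPL3, RPL31, RPL4, RPS24, RPL21, RPS7 and RPS27A. RPL3, a core protein that reaches to the peptidyl transferase centre, had 383.2, 409.6 and 422.5 FPKM in NC and 294.7, 289.1 and 286.9 in siPSCA (-0.48 ± 0.05, adjusted p = 0.00141). RPSA, the laminin receptor precursor that also belongs to the small subunit, had 279.9, 284.6 and 293.7 FPKM in NC and 278.1, 270.2 and 263.5 in siPSCA. The siPSCA libraries were lower by a small margin, without a call (-0.08 ± 0.05, adjusted p = 0.183).

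**Figure D2:**
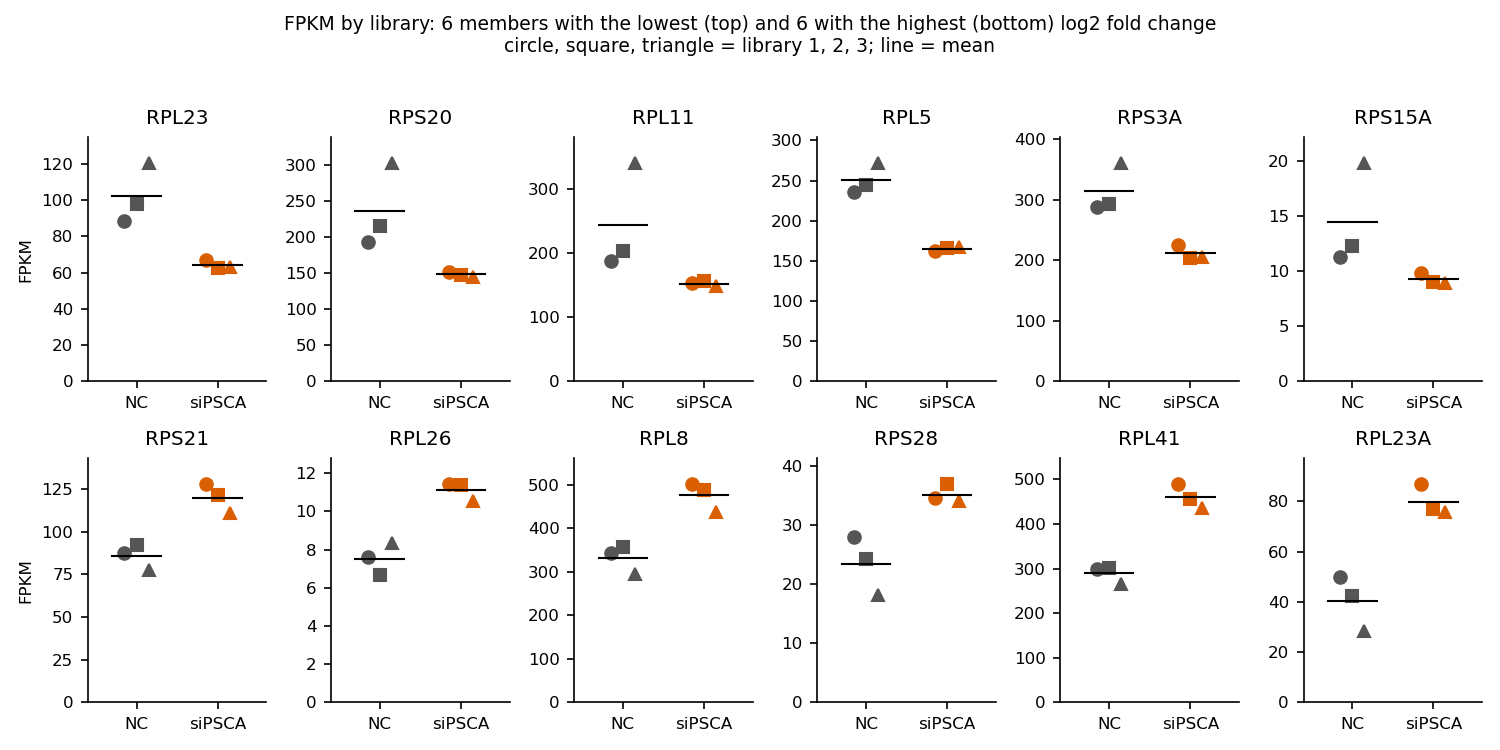
FPKM (linear axes from 0) in each library for the 6 members with the lowest and the 6 with the highest log2 fold change; symbols are libraries 1 to 3 and lines are group means. In all 12 panels the groups do not overlap, and NC 3 is the highest NC library in all 6 upper panels, reaching 339.7 FPKM in RPL11. The panels were picked by the fold change in these same libraries, which favours both features. Every siPSCA library lay above every NC library in 33.7% of all genes and below in 30.8%. NC 3 was the highest NC library in 39 of the 81 tested members.

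The largest rise was that of RPL23A (ENSG00000198242, chr17:28719393-28724359, plus strand), which lines the rim of the exit tunnel where the signal recognition particle docks. It had 49.8, 42.5 and 28.6 FPKM in NC and 86.8, 77.0 and 75.8 in siPSCA, a 1.98-fold higher mean (log2 fold change 1.00 ± 0.19, adjusted p = 0.0077). NC 3 was the lowest library, and without it the log2 fold change of RPL23A was 0.78. With the reads of its pseudogenes added, the log2 fold change was 0.87. RPL41 (chr12:56116586-56117943, plus strand), the shortest ribosomal protein, had 300.0, 302.0 and 266.0 FPKM in NC and 489.4, 456.8 and 436.0 in siPSCA (0.67 ± 0.07, adjusted p = 0.00141). RPL26, at the mouth of the tunnel, had 7.60, 6.65 and 8.34 FPKM in NC and 11.4, 11.4 and 10.6 in siPSCA (0.51 ± 0.08, adjusted p = 0.00457), and RPS21 had 87.4, 91.9 and 77.6 against 127.7, 121.3 and 110.7 (0.48 ± 0.08, adjusted p = 0.00536). In these genes every siPSCA library was above every NC library, and siPSCA 1 was the highest.

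Reads could be shared for many of the rises. Of the 13 members that rose, 7 had over 10% of their exonic bases in common with another gene on the same strand, or over 10% of the reads of gene and pseudogenes on the pseudogenes (among them RPL23A, RPL26, RPS28, FAU, RPL36 and RPL39), and of the 29 that fell 2 did (RPS7 and RPL7). RPS28, at the mRNA exit of the small subunit, is uncertain. It had 27.9, 24.2 and 18.2 FPKM in NC and 34.5, 36.9 and 34.0 in siPSCA (0.58 ± 0.15, adjusted p = 0.0184). Its processed pseudogene RPS28P7 held 12288 reads in all libraries together against 6495 on RPS28, 65.4% of both, and with these reads added the log2 fold change was 0.05 (adjusted p = 0.535). Without siPSCA 1 and without siPSCA 2 the adjusted p of RPS28 was 0.0564 and 0.0634. The members that rose also included RPL36, RPL39, FAU, RPLP1, RPL13 and RPS25, with log2 fold changes between 0.33 and 0.45. Of these, RPL13 lost the call without siPSCA 1, 2 or 3 (adjusted p = 0.103, 0.0911 and 0.055), as did RPS25 without siPSCA 1, 2 or 3 (0.103, 0.095 and 0.0525).

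The stalk of the large subunit recruits the GTPase translation factors. Of its proteins RPLP1 rose, from 155.1, 154.1 and 125.6 FPKM in NC to 210.8, 193.8 and 180.3 in siPSCA (0.43 ± 0.10, adjusted p = 0.0152), although the adjusted p was 0.0567 and 0.0505 without siPSCA 1 and siPSCA 2. Its dimer partner RPLP2 had 145.6, 163.1 and 158.6 against 157.9, 150.3 and 147.1 (-0.04, adjusted p = 0.638), and the anchor RPLP0 also overlapped. RPL12, at the stalk base, had 251.4, 252.8 and 245.9 FPKM in NC and 232.5, 217.9 and 216.1 in siPSCA (-0.17 ± 0.05, adjusted p = 0.0261). This fall was lost without NC 1, NC 2, siPSCA 2 or siPSCA 3 (adjusted p = 0.0624, 0.0848, 0.103 and 0.0889).

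RPS27A and FAU are each made as a fusion, to ubiquitin and to a ubiquitin-like protein. RPS27A had 145.5, 149.4 and 136.3 FPKM in NC and 120.8, 112.8 and 111.2 in siPSCA (-0.32 ± 0.06, adjusted p = 0.00591). FAU had 62.2, 58.4 and 63.5 in NC and 91.5, 83.9 and 78.3 in siPSCA (0.45 ± 0.07, adjusted p = 0.00372). The fusions thus fell and rose, and each pair of groups was apart. Of FAU's exonic bases 21.6% are shared on the same strand with SYVN1.

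Of the X-linked members RPS4X had 282.5, 299.5 and 382.5 FPKM in NC and 237.3, 235.8 and 230.7 in siPSCA (-0.44 ± 0.11, adjusted p = 0.0201, and 0.0605, 0.0608 and 0.0602 without siPSCA 1, 2 and 3). RPL39, a small protein of the exit tunnel, had 43.8, 46.2 and 41.6 against 64.7, 54.1 and 54.6 (0.39 ± 0.08, adjusted p = 0.0113). RPL36A, at the exit site for tRNA, had 3.50, 3.88 and 3.46 against 3.68, 3.48 and 3.63 (-0.004, adjusted p = 0.963). RPL10, which joins the large subunit last, had 204.9, 200.4 and 127.2 against 181.4, 171.5 and 169.2. NC 3 alone was below siPSCA, and the log2 fold change of 0.0035 (adjusted p = 0.989) was -0.22 without NC 3 (adjusted p = 0.0059). Antisense genes overlap 52.7% of the exonic bases of RPL10, and without strand such reads cannot be told apart.

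Of the 6 paralogs 3 passed the minimum. RPL22L1, the paralog of RPL22, had 78.4, 81.4 and 102.3 FPKM in NC and 67.3, 62.0 and 61.3 in siPSCA (-0.44 ± 0.11, adjusted p = 0.0162, and 0.0574 and 0.0534 without siPSCA 2 and siPSCA 3). RPL22 itself had 20.6, 22.1 and 21.1 against 23.7, 21.8 and 21.8 (0.08, adjusted p = 0.289), so the paralog had the higher FPKM in each library. RPL26L1 had 13.5, 14.8 and 15.8 FPKM in NC and 19.7, 20.5 and 15.8 in siPSCA, where siPSCA 3 lay beside NC 3 (0.32 ± 0.11, adjusted p = 0.0508, and 0.0165 without siPSCA 3 and 0.0395 without NC 3). RPL7L1, which acts in ribosome assembly, had 22.5, 23.8 and 27.5 against 24.97, 24.2 and 25.01 (0.01, adjusted p = 0.911).

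The other paralogs were scarcely detected. RPL3L, the striated muscle paralog of RPL3, had 9 reads in NC and 17 in siPSCA, a ratio per depth of 1.87 with an exact 95% binomial interval from 0.789 to 4.77, which covers counting error only. RPL10L, the testis paralog of RPL10, and RPL39L had 0 reads in all libraries, and 3 reads would have been 0.203 to 0.22 FPKM for RPL10L and 0.155 to 0.168 for RPL39L.

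Relatives outside the rule were measured too. The paralog RPS27L had 6.14, 6.23 and 5.60 FPKM in NC and 7.96, 7.67 and 6.72 in siPSCA (0.27 ± 0.08, adjusted p = 0.0266, and 0.0912 and 0.0913 without siPSCA 1 and siPSCA 2). RPL36AL had 98.4, 108.0 and 148.3 against 142.9, 131.7 and 119.5 (0.17, adjusted p = 0.401, and 0.34 with 0.0165 without NC 3). RACK1, a scaffold on the head of the small subunit, had 141.0, 148.0 and 148.6 against 139.4, 138.5 and 133.8 (-0.09, adjusted p = 0.151).

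The proteins of the exit tunnel and of the mRNA path held both rises and falls, where 26.6% of all genes rose and 24.2% fell. Of 9 proteins of the exit tunnel 3 rose (RPL23A, RPL26 and RPL39), RPL31 (-0.39) and RPL4 (-0.38) fell, and the median log2 fold change was -0.09. Of 8 proteins along the mRNA path 2 rose (RPS28 and FAU) and RPS14 fell (-0.35), with a median of 0.11. The falls in the tunnel (22.2%) and the rises along the mRNA path were near the shares of all genes. Every rise named for the tunnel and the mRNA path is in a member with over 10% of shared bases or pseudogene reads. Among 15 members whose loss of a copy causes Diamond-Blackfan anaemia, a failure of red cell production, 3 rose (20.0%), 7 fell (46.7%) and the median was -0.20.

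snoRNAs lie in introns of 28 members on the same strand. Of these hosts 3 rose (10.7%) and 12 fell (42.9%), with a median of -0.09. Of the other 53 tested members 10 rose (18.9%) and 17 fell (32.1%), with a median of -0.04. Over all genes 26.6% rose and 24.2% fell. RPL23A, with SNORD42A, SNORD42B, SNORD4A and SNORD4B, and RPL23, with SNORA21 and SNORA21B, are hosts, so the highest and the lowest member both belong to this class.

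The changes ran with base composition. Across the 81 members the log2 fold change had a Spearman rho of 0.44 with the GC content of the exons, and across 13792 genes rho was 0.67, both as descriptions over genes that share the same 6 libraries. In the 27 members of lowest GC content 2 rose (7.41%) and 17 fell (63.0%), with a median log2 fold change of -0.28. In the middle 27 there were 5 (18.5%) and 7 (25.9%, median -0.04), and in the highest 27 there were 6 (22.2%) and 5 (18.5%, median 0.0035). Over all genes 26.6% rose and 24.2% fell. When a smooth trend of GC content and gene length was removed in each library, rho among the members was -0.17 and the median was -0.17. In that fit 10 members were higher (12.3%) and 35 lower (43.2%), against 21.6% and 18.3% of all genes. Calls in the same direction were made in both analyses for 31 members, 7 that rose and 24 that fell, and in opposite directions for 0.

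**Figure D3:**
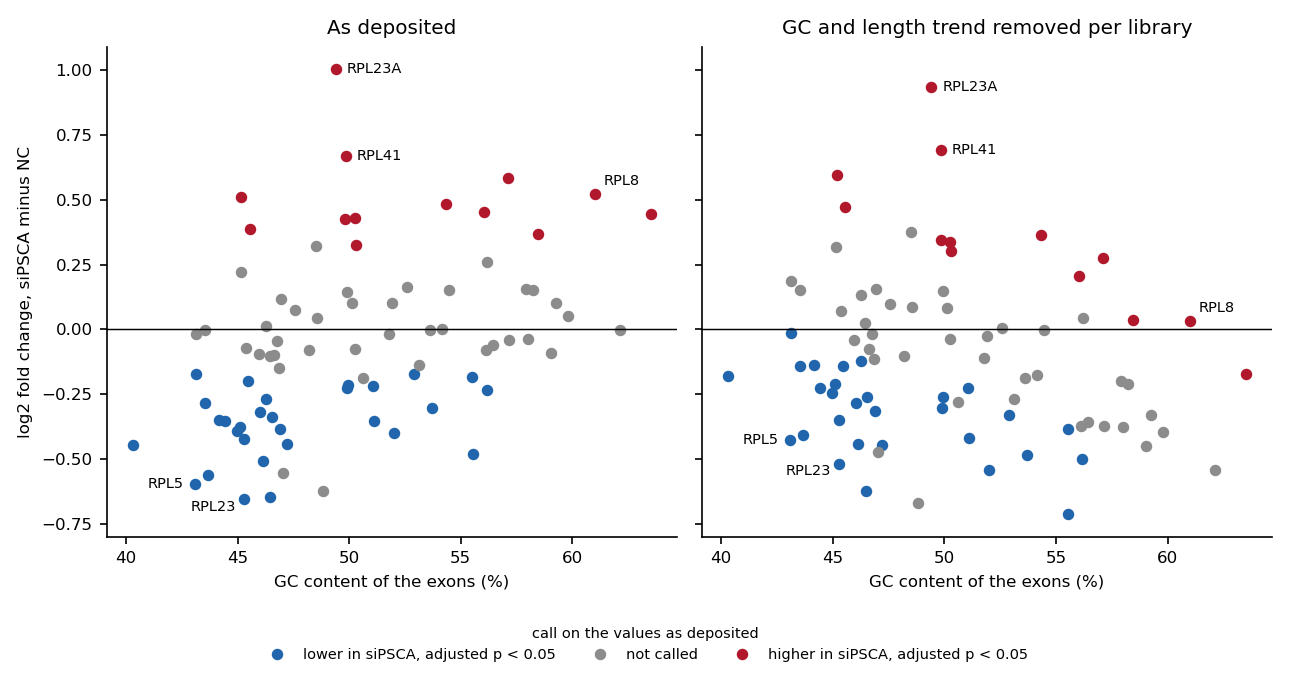
log2 fold change (siPSCA minus NC) against the GC content of the exons (%) for the 81 tested members, from the deposited values (left) and after a trend of GC content and length was removed per library (right), each point coloured by its call on the deposited values. RPL23A and RPL41 stay highest in both panels, whereas RPL8 moves from 0.52 to 0.03.

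RPL39, RPS21, RPL26, RPL41 and RPL23A rose, and the 13 members introduced with RPS6 fell, with the trend removed as well as in every fit without 1 library. RPL8 (0.03, adjusted p = 0.684), RPL36 (-0.17, 0.417), RPL13 (0.04, 0.575), FAU (0.21, 0.0806) and RPS28 (0.27, 0.0633) lost their rises with it, and RPL22L1 (-0.18, 0.136) its fall. RPS2 went from 0.05 to -0.39 (adjusted p = 0.0308) and RPL13A from -0.06 to -0.36 (0.01), whereas RPS12, RPS18 and RPLP0 stayed without a call.

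Falls also outnumbered rises among other TOP mRNAs, and rises outnumbered falls among mitochondrial ribosomal proteins. These lists are described by their counts. Falls made up 70.0% and 10.4% of the tested genes of these lists, against 24.2% of all genes, and rises 5.0% and 42.9%, against 26.6%. Of 20 tested translation factors and other TOP mRNAs 14 fell and 1 rose (median log2 fold change -0.36), led by TPT1 (163.3, 174.2 and 242.1 FPKM in NC against 99.6, 93.0 and 101.2 in siPSCA, -0.95 ± 0.15) and EIF3H (-0.75 ± 0.09), whereas EEF1D rose (1.10 ± 0.22) and EEF2 had 0.04 with an adjusted p of 0.495. Their share of the reads fell from a mean of 2.51% to 2.07%. Of 77 mitochondrial ribosomal proteins 33 rose and 8 fell (median 0.20), from MRPL42 (-0.74 ± 0.06) and MRPS6 (-0.44 ± 0.07) to MRPS12 (1.41 ± 0.30) and MRPL12 (1.64 ± 0.47). The reads on cytosolic members were 13.0, 13.3 and 13.1 times those on mitochondrial ribosomal proteins in NC 1, 2 and 3 and 10.7, 10.6 and 10.5 times in siPSCA 1, 2 and 3, so the groups were well apart.

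**Figure D4:**
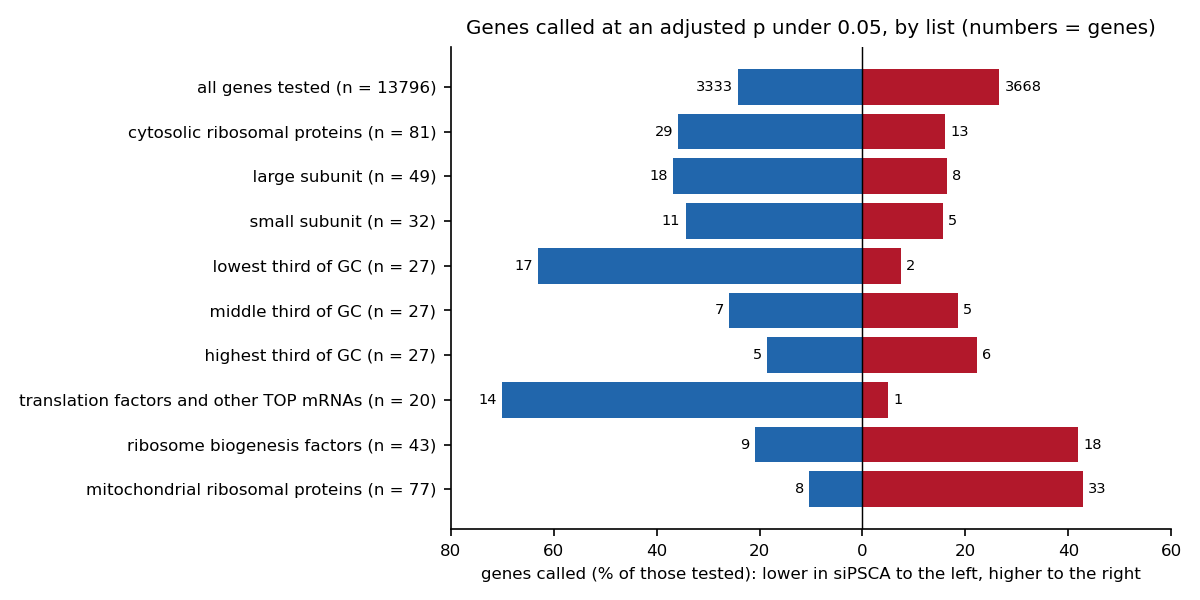
Percent of the tested genes of each list that were lower (left) or higher (right) in siPSCA at an adjusted p under 0.05, with the number of genes at the end of each bar. Falls outnumber rises among the ribosomal proteins (29 and 13) and TOP mRNAs (14 and 1), and rises outnumber falls among biogenesis factors (18 and 9) and mitochondrial ribosomal proteins (33 and 8).

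Of 43 ribosome biogenesis factors 18 rose (41.9%) and 9 fell (20.9%), against 26.6% and 24.2% of all genes (median 0.11). NHP2 (1.30 ± 0.12) and BOP1 (1.03 ± 0.13) were highest and NOC3L (-0.61 ± 0.07) and NMD3 (-0.36 ± 0.06) lowest. Of 14 genes of RNA polymerase I and its factors, which make the rRNA precursor, 4 rose (28.6%) and 1 fell (7.14%, median 0.07). The share of rises was near that of all genes. TAF1C (1.01 ± 0.27) and POLR1A (0.36 ± 0.06) were highest and TAF1D (-0.68 ± 0.05) and TAF1B (-0.23, adjusted p = 0.0692) lowest. Of 6 chaperones that escort new ribosomal proteins, GRWD1 (0.73 ± 0.09) and TSR2 (0.41 ± 0.05) rose, PDCD2L fell (-0.45 ± 0.12), and BCCIP had -0.29 with an adjusted p of 0.0849. The rises were 33.3% and the fall 16.7% of this list. Of 11 regulators of TOP mRNA translation 7 rose (63.6%) and 1 fell (9.09%), with a median of 0.36, and 0.09 with the GC and length trend removed. MLST8 (0.68 ± 0.16) and RPTOR (0.62 ± 0.09) were highest, RPS6KB1 (-0.34 ± 0.08) lowest and RHEB (-0.07, adjusted p = 0.296) next.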

How the data were processed

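RNA of 6 libraries was measured. The authors deposited 1 table of FPKM for 58735 genes with length, position and biotype. GRCh38 is given in the submitters' processing notes, and positions and lengths of all 58735 genes equal GENCODE release 29. The aligner, the counting program and the use of strand are not given in the sources used here. FPKM times gene length was a whole multiple of 1 read in 100% of values (tolerance 0.01 read), so reads were recovered.

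limma 3.58.1 (R 4.3.3; lmFit, eBayes with trend) was fitted to log2(FPKM + 1) of 13796 genes, those that averaged 1 FPKM or more over the 6 libraries, with group as the only term, and p-values were adjusted by Benjamini-Hochberg over all genes. Fold changes on this scale understate changes of low genes. Scripts were tested on simulated data. Python 3.11.15, pandas 2.3.3, numpy 2.4.6, scipy 1.17.1 and matplotlib 3.10.9 were used. The trend of GC content and length was removed per library with natural splines.

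Named by rule were the 6 largest and 6 smallest fold changes, the 6 highest FPKM, all paralogs, stalk, 5S, ubiquitin-fusion and X-linked members, RPSA, RPS6, RPL41, relatives outside the rule, and the 2 extremes at either end of each further list. RPL3, RPL22, SYVN1 and the other members that rose or that lost or held a call were named after their values were seen. Some genes that this rule names are not reported here. Members and lists were chosen with earlier results of these data known. The alternatives were a pseudocount of 0.1, no FPKM minimum, TPM, median-of-ratios size factors, limma-voom on recovered reads, the trend removal, pseudogene reads added, each library left out, a replicate block and the call rule. Leaving out members with shared reads and the trend removal without NC 3 were chosen after seeing the data.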

Additional observations from a re-analysis of the deposited data

How the results depend on the processing

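Main counts were 13 members higher and 29 lower (16.0% and 35.8%, against 26.6% and 24.2% of all genes), with a median log2 fold change of -0.0735. The number higher was 5 of 81 under an unadjusted p under 0.05 with a log2 fold change over 0.5 in size, a smaller share than the 14.7% of all genes. It was 6 of 67 members with at most 10% of shared reads (8.96%, against 26.6%). With each library left out it was 8 to 19 (9.88% to 23.5%, against 16.7% to 29.1% of all genes). The number lower was 16 with no FPKM minimum (19.5%, against 8.21% of all genes). It was 7 of 81 under the unadjusted rule, a smaller share than the 10.2% of all genes. With each library left out it was 14 to 34 (17.3% to 42.0%, against 16.9% to 24.7% of all genes), with no excess over all genes without siPSCA 3. The median was -0.121 on TPM, -0.17 with the GC and length trend removed and -0.132 with that trend removed and NC 3 left out. In this last fit 13 members were higher (16.0%, against 23.65% of all genes) and 41 lower (50.6%, against 18.83%). With no FPKM minimum 34391 genes were tested; the cause of the other changes was not tested. RPS2 reversed from 0.05 to -0.39 with the trend removed (adjusted p = 0.0308) and to -0.27 without NC 3 as well (0.00766). RPL10 reversed from 0.0035 to -0.22 without NC 3 and -0.38 with the trend removed too, and ranged from -0.22 to 0.12 over the fits without 1 library. A pseudocount of 0.1, median-of-ratios size factors, limma-voom and added pseudogene reads kept both counts within 1.5 times and the median between -0.0802 and -0.0628. The read share stayed lower in siPSCA without each library (log2 ratio -0.115 to -0.0743).

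Deviations of same-numbered NC and siPSCA libraries correlated weakly, at 0.0955, 0.0132 and 0.134. The largest correlation of each NC library with a siPSCA library of another number was 0.0417, 0.0363 and -0.0414. The same number was thus the closer one for numbers 1 and 3 only, and these values do not decide whether libraries were paired. A replicate block gave 13 higher members (16.0%, against 25.89% of all genes), 24 lower members (29.6%, against 22.85%) and a median of -0.0735. It moved RPL12 out of the calls (adjusted p = 0.0546), and changed no other call among the named genes. Read counts of NC 3 differed from those of NC 1 and NC 2 by a chi-square of 24.4 and 19.6 per degree of freedom over genes, against 2.47 between NC 1 and NC 2, so at this depth the spread between libraries and not counting limits the calls.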

Other observations

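Rows of processed and other pseudogenes named for a member numbered 1146, of which 530 had a read and 100 passed the FPKM minimum. Of these 100 rows 8 rose and 28 fell, against 26.6% and 24.2% of all genes, so the falls were near that share and the rises were fewer. Their median log2 fold change was -0.19. The share of the reads on genes held by all pseudogene rows was 0.182%, 0.189% and 0.205% in NC 1, 2 and 3 and 0.166%, 0.163% and 0.158% in siPSCA 1, 2 and 3. The 5 rows with most reads held 53.7% of the reads of all of them. Reads that fit a gene and its copy equally can be counted on either, and how they were assigned is not given in the sources used here.

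Copies and parents moved by unequal amounts in some pairs. RPL7P1 had 4292, 5051 and 6791 reads in NC and 1902, 1943 and 2322 in siPSCA (log2 fold change -1.40, adjusted p = 0.00166), whereas RPL7 had a log2 fold change of -0.28, or -0.49 with the reads of its copies added. RPL13P12 had 986, 848 and 627 reads in NC and 504, 420 and 539 in siPSCA (-0.76, adjusted p = 0.0161), while RPL13 rose by 0.37. RPLP0P6 had 596, 723 and 493 reads in NC and 953, 832 and 785 in siPSCA (0.47, adjusted p = 0.0458), while RPLP0 had a log2 fold change of -0.0021. RPS2P5, the copy with most reads, had 5784 to 6427 in NC and 6149 to 6826 in siPSCA (0.06, adjusted p = 0.394). The difference between a copy and its parent was not tested.

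The readthrough genes RPL17-C18orf32, RPL36A-HNRNPH2 and RPS10-NUDT3, which share 24.8%, 8.40% and 39.4% of the exonic bases of RPL17, RPL36A and RPS10, had 1, 0 and 5 reads in all libraries. These members are among the 5 tested ones under 10 FPKM, as is RPL26.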
